A study of Drepana arcuata with 6 samples.

Results

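Among the 116079 Trinity genes assembled from larvae of the masked birch caterpillar, *Drepana arcuata*, 114 were read almost only in early instars. A Trinity gene is a group of assembled transcripts that share sequence, and its transcripts are called isoforms. The 114 were chosen by their own levels. Fragment counts were summed over the isoforms of each gene and scaled by the library total (CPM, counts for each 1000000 counts of the library). A gene was kept if it had at least 10 CPM in each early library and if its highest late CPM was at most 10% of its lowest early CPM. Genes with a transcript in the study's lists of named differential and social-behaviour transcripts were to be left out, but none of those 27 genes met both limits. The differences between the stages given below are therefore a description of the genes chosen, and none of them is a test.

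All larvae were offspring of 1 wild female and were reared on paper birch. The 3 early libraries were each made from a pool of 20 whole larvae, an about equal mix of instars I and II, which lived in groups in shared silk shelters. The 3 late libraries were each made from a pool of 5 whole larvae, of which 3 were in instar IV and 2 in instar V, and these lived alone. No larva carried a transgene or received a treatment, and no other genotype or stage was sequenced. Age, body size, social state and the number of larvae in a pool differ together between the stages and cannot be told apart. The count files give contigs by number, without gene names or sequences. The study annotated its assembly, but that annotation and the assembled sequences were not used here. The whole-body label was therefore not checked against marker genes, and no function is given for any of the 114 genes. In whole larvae, fewer cells of a type and less RNA per cell cannot be told apart.

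Caterpillars grow through a series of instars that are separated by moults. Pulses of ecdysteroid hormones start each moult, and juvenile hormone keeps the moult larval. Genes can be used in only part of this series, for example some genes of cuticle proteins. In *D. arcuata* the step from group to solitary life falls in the instar between the stages sampled here, and early and late instars also feed on the leaf in different ways. The question of the comparison is which transcripts differ between the social and the solitary larvae.

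Of the 114 genes, 3 contain a transcript that the study also chose for RT-qPCR. Their primers are the only designed sequences that mark members of the set, and they are shown to identify these transcripts. They are printed 5′ to 3′, and the capitals mark the 5 bases at the 3′ end, from which the polymerase extends. The study pairs each with a protein database entry, which was not used here, nor were the RT-qPCR measurements.
TRINITY_DN17510_c2_g2_i2 forward primer: tgtattgatgcgccAGTCT
TRINITY_DN17510_c2_g2_i2 reverse primer: atgccaacgtcattGTCCT
TRINITY_DN19051_c1_g1_i1 forward primer: taaaaaggcgcaaatACAGG
TRINITY_DN19051_c1_g1_i1 reverse primer: ttggagaaatgtttcGTGGT
TRINITY_DN12902_c0_g1_i1 forward primer: ggcacaagaaatagcAAAGC
TRINITY_DN12902_c0_g1_i1 reverse primer: caaggctttcaattcAGCAT

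TRINITY_DN17510_c2_g2, the most abundant of these 3, had 428, 528 and 311 CPM in early replicates 1, 2 and 3. In late replicates 1, 2 and 3 it had 13.4, 18.7 and 16.3 CPM. Every early library thus held many times the level of every late one, and the late mean was 3.83% of the early mean. The isoform that carries the primers made up 88.1% of the early level of the gene. TRINITY_DN19051_c1_g1 had 95.2, 69.2 and 34.6 CPM in the early replicates and 1.38, 0.288 and 1.52 CPM in the late ones. Early replicate 3 was its lowest early library and late replicate 2 its lowest late one. Its primers lie on an isoform with 43.9% of the early level, which had 2581 counts in early and 10 in late instars. TRINITY_DN12902_c0_g1 has 1 isoform and was weaker, with 23.3, 19.6 and 16.6 CPM in the early and 0.759, 1.06 and 1.19 CPM in the late replicates. Its late mean was 5.06% of its early mean, from 75 late counts in all.

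**Figure D1:**
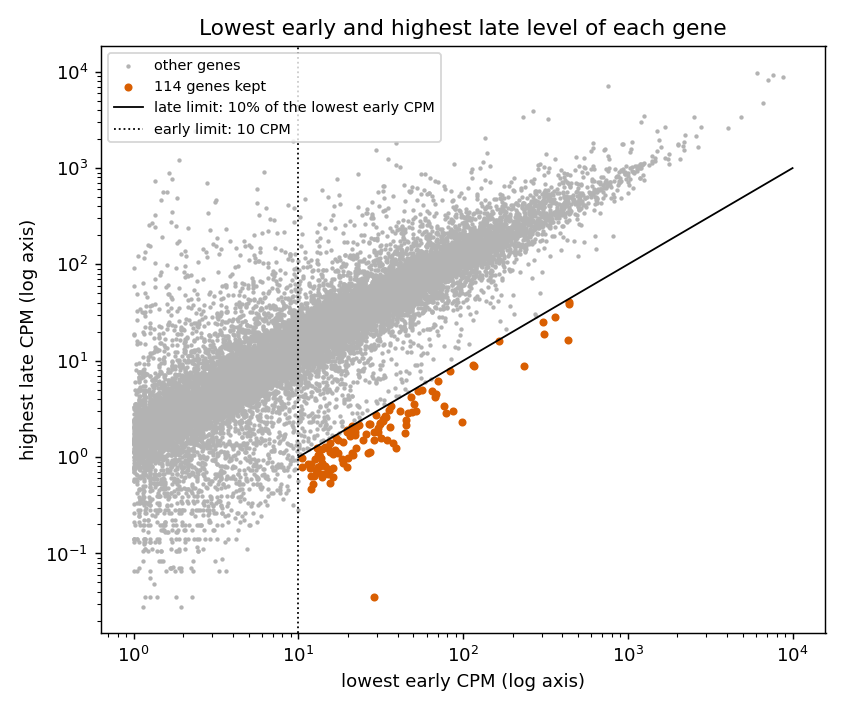
Each point is 1 Trinity gene with at least 1 CPM in every early library and a late level above 0, with its lowest early CPM on the x axis and its highest late CPM on the y axis, both on log axes. The 114 genes kept lie to the right of 10 CPM and below the line of 10%, and 1 of them lies far below the others.

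Of all genes, 9525 had at least 10 CPM in each early library, and the 114 were 1.20% of these. Across these 9525 the median of the late mean was 100% of the early mean. The mean early level of the 114 had a median of 30.2 CPM, against 39.7 CPM in the 9525. It was below 20 CPM in 30 genes and between 20 and 50 CPM in 54. It was between 50 and 100 CPM in 17 genes, between 100 and 200 CPM in 6 and above 200 CPM in 7. Together they made up 0.782%, 0.817% and 0.648% of the counts of early replicates 1, 2 and 3. They made up 0.0301%, 0.0339% and 0.0325% of the counts of late replicates 1, 2 and 3. The summed level was thus close to the same in the 3 late libraries, whereas early replicate 3 was below the other early libraries.

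The median of the 114 genes was 35.2, 31.1 and 23.9 CPM in the early replicates and 1.18, 1.20 and 1.26 CPM in the late ones. The library totals ran from 11177800 to 46307057 counts. At these depths the weakest gene of the set still had 133 counts in early replicate 2, the shallowest library. Late counts were lower, with a median of 97 counts over the 3 late libraries and a range from 1 to 2689. In 93 genes each late library held at least 10 counts. In 3 genes the late libraries together held fewer than 30.

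**Figure D2:**
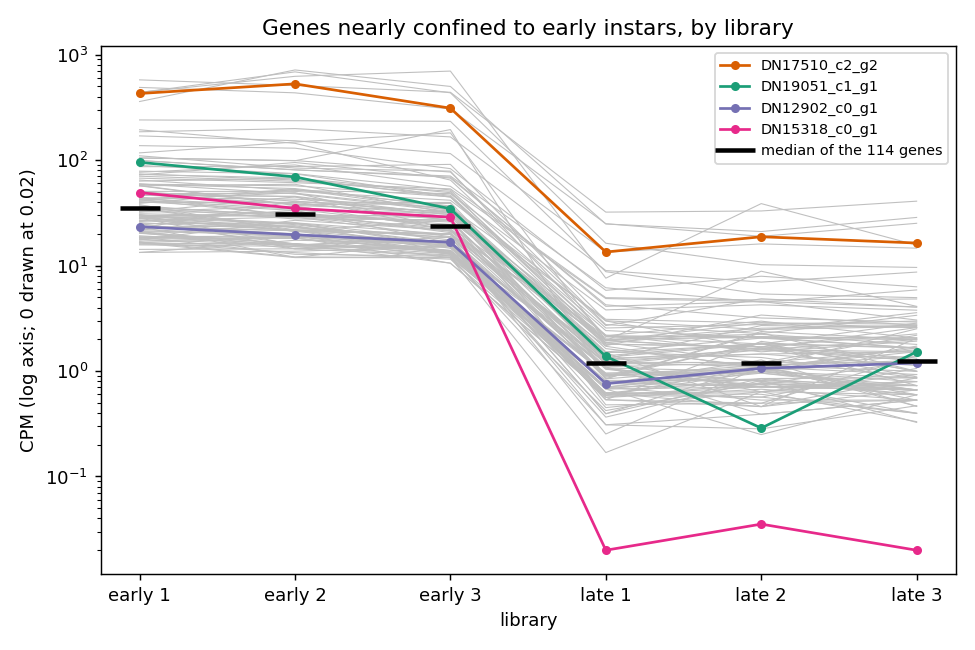
Each grey line is 1 of the 114 genes, with its CPM on a log axis in the 3 early and 3 late libraries, and the black bars are medians over the 114. The coloured lines are the 3 genes with RT-qPCR primers and TRINITY_DN15318_c0_g1, which has 1 count in late replicate 2 and none in the other late libraries.

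The stage comparison was fitted for all 22132 genes with more than 1 CPM in at least 2 libraries by edgeR's quasi-likelihood test. A gene was called where the Benjamini-Hochberg adjusted p did not exceed 0.001 and the log2 fold change reached 2. All 114 genes were called higher in early instars, as were 3.96% of all genes tested. The exact test of edgeR and DESeq2 also called all 114, and they called 6.24% and 5.94% of all genes tested. The selection used the same contrast, so nothing is read from these counts. Their log2 fold changes, early minus late, ran from 3.67 to 11.11 with a median of 4.68. The median over all genes tested was 0.00.

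The genes were rarely silent in late instars. None had 0 counts in every late library. The late mean was 3.93% of the early mean in the median gene, and it ran from 0.0314% to 8.01%. It lay between 3% and 4% in 36 genes, between 2% and 3% in 20 and between 4% and 5% in 20. It was under 1% in 1 gene and between 1% and 2% in 3. The name "nearly confined" thus stands for a small but measured late level in all but a few of the genes.

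**Figure D3:**
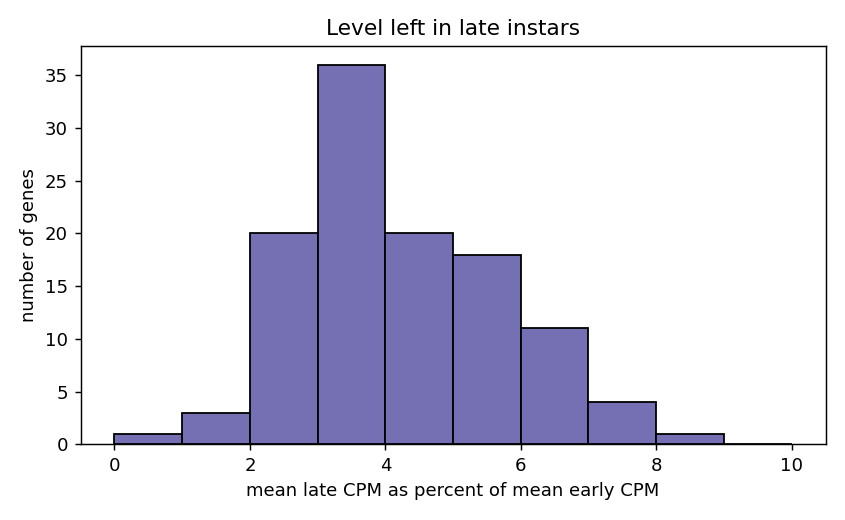
The x axis is the mean late CPM as percent of the mean early CPM in steps of 1%, and the y axis is the number of genes in each step. The tallest bar, with 36 of the 114 genes, is that between 3% and 4%, and the values end below 10% because the rule requires it.

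The gene under 1% was TRINITY_DN15318_c0_g1, which was singled out after its values were seen. It had 49.2, 34.9 and 28.7 CPM in early replicates 1, 2 and 3. In late instars it had 1 count, in late replicate 2, and 0 counts in late replicates 1 and 3. On the pooled totals it was 3255-fold higher in early instars, with an exact 95% interval from 584 to 128589 that covers counting error only. The interval does not allow for the choice of the gene as the most extreme of a set chosen on this contrast. It is therefore no test of the difference. The gene was assembled as 12 isoforms, the longest of 2343 bp. Its early level was above the median of the set in every early library, whereas its late level was the lowest of the set.

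Genes were found close to both limits on either side. By the early limit, TRINITY_DN21225_c2_g4 and TRINITY_DN20179_c2_g1 were the nearest inside, each with a lowest early level of 10.5 CPM. TRINITY_DN14566_c0_g3 and TRINITY_DN21766_c0_g1 were the nearest outside, each with a lowest early level of 9.94 CPM. By the late limit, TRINITY_DN22233_c0_g1 and TRINITY_DN18909_c0_g1 were the nearest inside, with a highest late level of 9.85% and 9.73% of the lowest early level. TRINITY_DN15426_c2_g2 and TRINITY_DN22777_c7_g1 were the nearest outside, with values from 10.03% to 10.1%.

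Levels can be compared between genes only per length, for which the TPM that RSEM gives each transcript was summed over the isoforms. On this scale the early mean of the 114 genes ran from 0.490 to 227 TPM with a median of 4.98 TPM. TRINITY_DN20321_c0_g3 was the highest, with 170, 249 and 263 TPM in early replicates 1, 2 and 3 and 3.43, 16.6 and 6.79 TPM in late replicates 1, 2 and 3. The late libraries of this gene differed more than the early ones, and late replicate 2 was the highest. TRINITY_DN17510_c2_g2 came next with 199 ± 54.0 TPM (SD, n = 3) in early and 8.48 ± 0.915 TPM in late instars. The difference between these 2 early means is smaller than either SD. TRINITY_DN16362_c2_g1 had 138 ± 19.6 TPM in early instars and, with 10.7 ± 1.56 TPM, the highest late mean of the 114 genes.

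TRINITY_DN17510_c2_g1 and TRINITY_DN20321_c0_g1 followed with 123 ± 35.8 and 119 ± 23.4 TPM in early instars, which their spread does not separate. For the former, 97.9% of the TPM came from isoforms under 300 bp, where the correction for length is large. TRINITY_DN21640_c2_g2 had 72.1 ± 2.78 TPM and TRINITY_DN17808_c0_g2 70.0 ± 16.9 TPM in early instars. TRINITY_DN21706_c1_g1, TRINITY_DN21020_c4_g3 and TRINITY_DN17215_c0_g1 had early means of 43.5, 41.6 and 31.5 TPM. The last of these kept the largest share in late instars, with 8.01% of its early mean on the CPM scale. TRINITY_DN21020_c4_g3 had an early mean of only 25.5 CPM, under the median of 30.2 CPM of the set. Its place among these 10 genes thus comes from the correction for length. In all 10 genes the lowest early TPM was above the highest late TPM. The rule itself sets such a gap on the CPM scale.

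**Figure D4:**
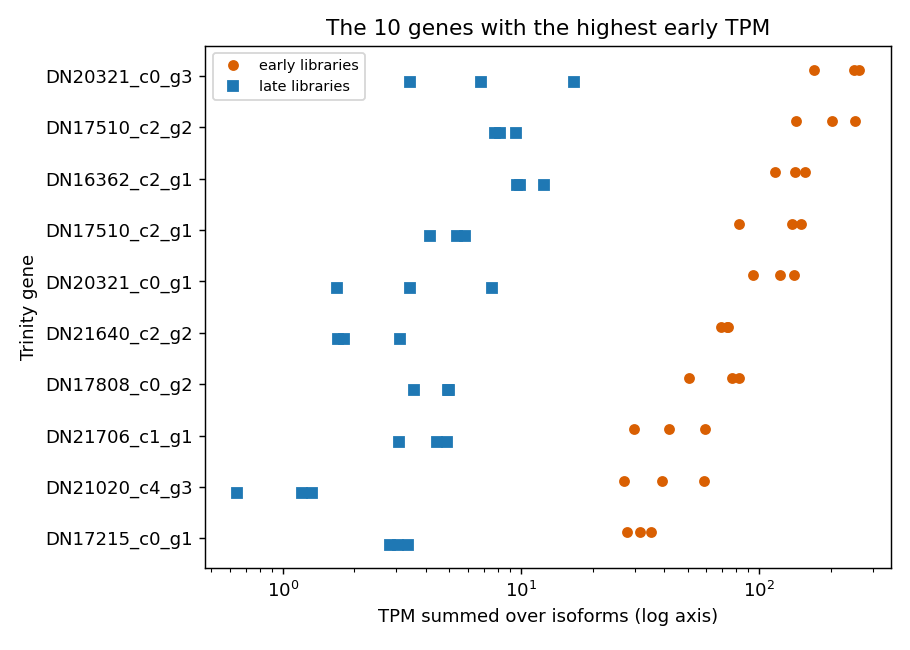
The 10 genes with the highest early TPM are on the y axis, and the x axis is the TPM summed over isoforms on a log scale. Circles are the 3 early and squares the 3 late libraries, and TRINITY_DN20321_c0_g3 and TRINITY_DN20321_c0_g1 have the most scattered late values.

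Some of the genes may not be separate measurements, which was not tested on their sequences. The genes were grouped by the DN number of their Trinity name, and such a group is called a cluster here. Trinity's own read cluster is given by the DN and the c number together, so a cluster here can hold several read clusters. Contigs of 1 read cluster can be pieces, copies or variants of the same gene. The 114 genes lay in 106 clusters, of which 8 held 2 of them each. In each of these 8 the 2 genes also had the same c number. The other 98 genes were alone in their cluster. In the 3 of these clusters with the highest early level, the proportion between the genes was much the same in most libraries. In cluster DN20321, gene TRINITY_DN20321_c0_g3 had between 3.75 and 4.37 times the CPM of TRINITY_DN20321_c0_g1 in the 6 libraries. In cluster DN17510, TRINITY_DN17510_c2_g2 had between 7.26 and 9.83 times the CPM of TRINITY_DN17510_c2_g1. In cluster DN21640, TRINITY_DN21640_c2_g1 had 437, 686 and 434 CPM and TRINITY_DN21640_c2_g2 240, 236 and 233 CPM in early replicates 1, 2 and 3. Their ratio was 2.90 in early replicate 2 and between 1.82 and 1.93 in the other 5 libraries. In the other 5 clusters the ratio varied within 1.83 to 2.63 in DN21697, 1.11 to 1.63 in DN17668, 0.630 to 1.69 in DN19983 and 0.526 to 1.43 in DN18909. It varied most in cluster DN18112, where the ratio of TRINITY_DN18112_c1_g4 to TRINITY_DN18112_c1_g5 ran from 0.769 in late replicate 1 to 6.09 in late replicate 2.

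A further 130 genes of the 106 clusters were tested in the stage fit and are not among the 114. Some of them differ in the c number from the gene of the set, and these were not counted apart. Of the 130, 20 were called higher in early instars and 3 higher in late instars, and 107 were not called. Their median log2 fold change was 0.40, and 79 of them had a value above 0. For comparison, the same fit called 876 of all 22132 genes tested as early-high and 1077 as late-high. Whether the 130 differ from all genes tested in these shares was not tested. Contigs with the same DN and c number can share reads, which RSEM divides between them, so that the 20 cannot be taken as independent of the selection. The 3 genes called higher in late instars each lay beside 1 gene of the set. One of them also met the limits of the set with the stages exchanged, and it lay beside TRINITY_DN22184_c2_g1. TRINITY_DN22184_c2_g1 had 24.0, 20.0 and 13.3 CPM in the early and 0.951, 1.06 and 0.529 CPM in the late replicates. TRINITY_DN22184_c0_g1 has the same DN number but another c number, and so lies in another read cluster. It had 0.216, 0.358 and 0.881 CPM in the early and 10.4, 32.3 and 11.5 CPM in the late replicates. The other 2 had fewer than 10 CPM in at least 1 late library and were named after their values were seen. TRINITY_DN17577_c0_g7 had 0.308, 0 and 0.126 CPM in the early and 14.5, 13.9 and 9.001 CPM in the late replicates, beside TRINITY_DN17577_c0_g1 of the set with 20.2, 16.0 and 13.8 CPM in the early and 0.562, 0.672 and 0.529 CPM in the late ones. TRINITY_DN15889_c3_g1 had 1.01, 0.358 and 0.671 CPM in the early and 7.31, 9.55 and 6.09 CPM in the late replicates. Its log2 fold change, early minus late, was -3.36. In all 3 genes every late library was above every early one.

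The rule used only sums over isoforms, and how a sum is made up was not part of it. The genes had a median of 6 isoforms, as had the 9525 genes of at least 10 CPM in each early library. Only 8 of the 114 (7.02%) had 1 isoform, against 12.1% of the 9525. The longest isoform had a median of 2580 bp, from 478 to 18835 bp, against a median of 2253 bp in the 9525. It was over 1 kb in 107 of the 114 (93.9%) and in 82.3% of the 9525. These differences between the sets were not tested.

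Of the 106 genes with 2 or more isoforms, 76 (71.7%) were led by the same isoform in all 3 early libraries, as were 78.3% of the genes of at least 10 CPM. The leading isoform held between 18.3% and 100% of the early level, with a median of 63.7%. It was the longest isoform of its gene in 32 of the 106. In late instars another isoform led in 30 of the 106 genes. This count was not made over all genes of at least 10 CPM in each early library, so it is not read as a trait of the set. These 30 had between 1 and 1908 late counts, with a median of 101, so that for many of them the late order of isoforms rests on few counts. RSEM divides reads that several isoforms share, and this division carries an error of its own.

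Of the 61 genes that were led by 1 isoform in every early library and had at least 10 counts in every late library, 40 were led by that same isoform in every late library. In 4 it led in no late library. These 2 counts were not made over all genes of at least 10 CPM in each early library either. One of the 4 genes was TRINITY_DN20392_c0_g1, with 22 isoforms. TRINITY_DN20392_c0_g1_i10 led in early replicates 1, 2 and 3 with 31.5%, 35.4% and 55.1% of the gene's counts. TRINITY_DN20392_c0_g1_i16 led in late replicates 1, 2 and 3 with 76.8%, 44.7% and 77.98%. These isoforms are 3409 and 3363 bp long, and the gene had 336 late counts.

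Among the other genes whose leading isoform differed, TRINITY_DN21706_c1_g1 had the most late counts. It has 23 isoforms, of which the leading one of each stage held 27.5% of the early and 20.3% of the late level. Different isoforms led in replicates of the same stage. In TRINITY_DN18705_c0_g5 the isoform i3 led in early replicates 1 and 2, whereas i1 led in early replicate 3 and in all late replicates. In TRINITY_DN14470_c0_g1 the isoform i10 led in all early replicates and in late replicate 1, and i11 led in late replicates 2 and 3. In TRINITY_DN21697_c0_g1, which has 31 isoforms, the leading one held 18.3% of the early level. In TRINITY_DN17795_c0_g1 the isoform i3 held 86.5% to 89.2% of the counts in the early replicates and 96.7% in late replicate 3, but i10 held 88.7% and 97.5% in late replicates 1 and 2. The leading isoform thus differed between replicates of 1 stage in 5 of these 6 genes.

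The early libraries were not alike. Early replicate 3 was the lowest of the 3 in 94 of the 114 genes (82.5%), and it was the lowest in 42.2% of the 9525 genes of at least 10 CPM. Early replicate 1 was the highest in 77 genes (67.5%) and early replicate 2 in 32 (28.1%), against 45.4% and 21.8% of the 9525. The order replicate 1, then 2, then 3 was found in 66 genes (57.9%) and in 28.9% of the 9525. In early replicate 3 the median gene lay at 81.1% of its early mean, against 116% in early replicate 1 and 105% in early replicate 2. With TMM scaling early replicate 3 was the lowest in 87 of the 114 genes and in 34.4% of the 9525, and with DESeq2 size factors in 92 and in 38.3%. The difference between these sets was not tested. The lead of early replicate 1 over early replicate 2 was not as stable. With DESeq2 size factors early replicate 1 was the highest in 55 genes (48.2%) and early replicate 2 in 54 (47.4%). In the 9525 genes these shares were 28.3% and 34.8%, so the share of early replicate 1 fell with this scaling in both sets.

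**Figure D5:**
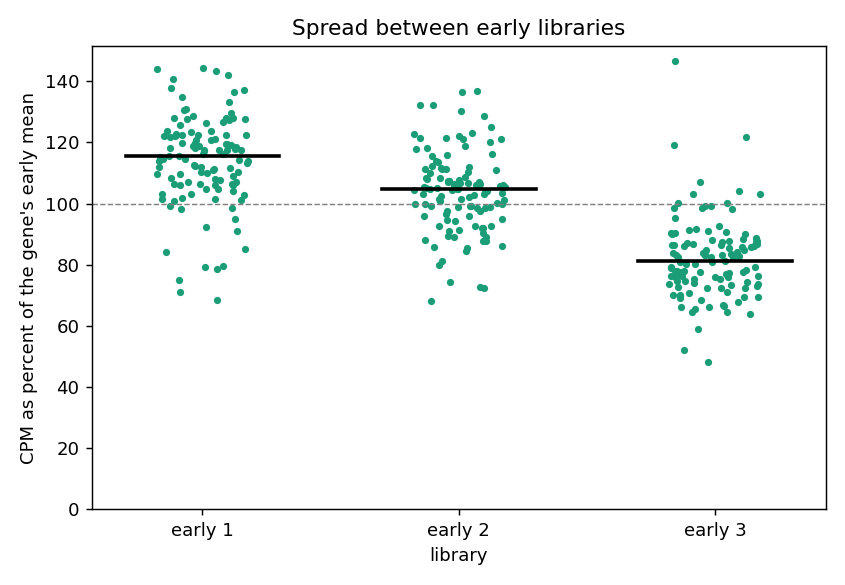
Each point is 1 of the 114 genes in 1 early library, with its CPM as percent of its mean over the 3 early libraries on the y axis, and black bars are medians. The median is 116% in early replicate 1, 105% in early replicate 2 and 81.1% in early replicate 3.

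The size of this spread differed between genes. The ratio of the highest to the lowest early library had a median of 1.53, against 1.32 in the 9525 genes, and it was at least 2 in 5 of the 114. It was largest in TRINITY_DN17795_c0_g1, with 194, 144 and 64.6 CPM in early replicates 1, 2 and 3. TRINITY_DN19051_c1_g1 and TRINITY_DN17190_c3_g2 followed with ratios of 2.75 and 2.21, and early replicate 3 was the lowest in all 3 genes. The level was most even in TRINITY_DN18365_c0_g1, with 40.0, 39.3 and 39.7 CPM in the early and 1.18, 1.13 and 1.26 CPM in the late replicates. TRINITY_DN21640_c2_g2 and TRINITY_DN16623_c3_g3 were almost as even, with ratios of 1.03 each. The 2 genes of cluster DN20321 ran against the common order. TRINITY_DN20321_c0_g3 had 439, 622 and 698 CPM and TRINITY_DN20321_c0_g1 117, 148 and 181 CPM in early replicates 1, 2 and 3.

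In late instars no library held the highest level throughout. Late replicate 1 was the highest in 32 genes, late replicate 2 in 48 and late replicate 3 in 34, which is 28.1%, 42.1% and 29.8% of the 114. In the 9525 genes these shares were 45.6%, 37.4% and 16.9%, and the difference between the sets was not tested. The highest late library had at least 2 times the lowest in 23 genes and at least 3 times in 9, among them the gene with 1 late count. The 2 genes of cluster DN20321 were the most abundant of the 9. TRINITY_DN20321_c0_g3 had 7.59, 38.7 and 15.6 CPM and TRINITY_DN20321_c0_g1 1.94, 8.84 and 4.10 CPM in late replicates 1, 2 and 3. TRINITY_DN19051_c1_g1 differed the other way, with its lowest level in late replicate 2, from 8 counts.

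Each library was left out of the rule in turn. The genes kept that also met the limits in the library left out are always the 114, because the full rule asks the same. The shares are thus no independent check and show only how far each library narrowed the choice. With early replicate 3 left out, the rule kept 181 genes, of which 114 (63.0%) also met the limits in that library. With early replicate 1 left out it kept 115 and with early replicate 2 left out 120, of which all but 1 and all but 6 met the limits in the library left out. With late replicates 1, 2 and 3 left out in turn, 123, 138 and 121 genes were kept and 92.7%, 82.6% and 94.2% met the limits there. The number of genes was thus limited most by early replicate 3 and next by late replicate 2.

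With the stages exchanged, 347 genes met the same limits and were high in late instars. They were 3.58% of the 9701 genes of at least 10 CPM in each late library, where the 114 were 1.20% of the 9525. In 167 of the 347 the highest early level was at most 1% of the lowest late level, whereas 1 of the 114 genes reached 1% by the same measure. The median of the longest isoform was 1627 bp in the 347, against 2182 bp in the 9701. Of the 347, 26.5% had 1 isoform, against 12.7% of the 9701. The differences between the 347 and the 114 genes were not tested.

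Of the 27 named genes on the study's lists, 14 had at least 10 CPM in each early library and 2 had a highest late level of at most 10% of the lowest early one. Those 2 were the genes of the ommochrome-binding protein, which binds eye and skin pigments, and of an octopamine receptor, a receptor for a neuromodulator of insects. Their lowest early levels were 2.27 and 4.95 CPM, under the early limit. The genes of proteoglycan Cow and of the neuropeptide F precursor, which gives a peptide linked to feeding in other insects, met the early limit. Their highest late levels were 12.4% and 12.1% of the lowest early level, just above the late limit. None of the 114 genes therefore bears a name from these lists.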

How the data were processed

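Paired-end reads of 150 bp from whole-larva RNA were trimmed by the authors (Trimmomatic 0.36, per the submitters' processing notes), and those below 50 bp were dropped. Reads of both stages were assembled jointly with Trinity, and abundance was estimated with RSEM. The RSEM version and its aligner were not given in the sources used here. For each transcript the authors deposited the expected count, which is not normalized, the TPM that RSEM derives within a library, and the contig length. FPKM and isoform percent were not used. Stage was taken from the sample labels. One early title has a digit where the others have a letter, and it was taken as early replicate 3. All pools came from 1 brood, so p-values measure only the spread between pools of that brood.

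Isoform counts were added up to Trinity genes, and CPM is this sum over the library total. For the stage fit the sums were rounded, genes above 1 CPM in 2 or more libraries entered, and edgeR 4.0.16 in R 4.3.3 was run (TMM, estimateDisp, glmQLFit, glmQLFTest) with Benjamini-Hochberg adjustment and no covariate. Steps were tested on simulated data. Alternatives were edgeR's exact test, DESeq2 1.42.0, RLE or no factors, other filters and limits, glmTreat, a prior count of 2, the replicate number as a block, each library left out, TMM or DESeq2 scaling or TPM in the selection, other limits in the selection, and single transcripts. Intervals cover counting error only.

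The genes, the lists and the rule for naming genes were chosen with earlier results of these data known. Named are the genes with RT-qPCR primers, the 10 with the highest early TPM, any with 0 late counts (none) and those nearest to each limit. Named too are those of 3 clusters with the most members (all 8 held 2, and those of the highest early level were taken). The same holds for those with the largest and smallest ratio between early libraries and 5 whose leading isoform differs between stages. It also holds for any on the study's lists that met both limits (none), those with a gene of reverse pattern in their cluster, and any not called (none). Other genes were named after their values were seen. The pairs of the other 5 clusters, TRINITY_DN15318_c0_g1 and the 4 list genes are among these.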

Additional observations from a re-analysis of the deposited data

How the results depend on the processing

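The number of genes found moved with the limits and the unit. The 114 genes became 30 with a late limit of 5%, 219 with 20%, and 67 with an early limit of 20 CPM. TPM in place of CPM, with the early limit then at 10 TPM, gave 18 genes, of which 15 were among the 114. The early mean of the 114 had a median of 4.98 TPM, so that this early limit alone leaves out many of them. TMM scaling gave 129 genes, with all 114 among them, and DESeq2 size factors gave 119, with 113 of the 114. With a library left out the number was between 115 and 181, the latter without early replicate 3. The number of genes with 0 late counts was 0, and 6 when the rule was put to single transcripts, and with a library left out it was between 0 and 1. Clusters with 2 or more genes were 8, against 3 with TPM, 1 with a late limit of 5% and 13 with 20%. With a library left out they were between 8 and 10. In the stage fit, the genes called higher in early instars over all genes were 876, against 1381 by the exact test, 1315 by DESeq2, 1584 with no filter and 1414 at an adjusted p of 0.05, and between 445 and 1001 with a library left out. They were 445 and 466 without early replicates 1 and 2, 560 without early replicate 3 and 565 without late replicate 3. Of the 114, between 108 and 114 were called with a library left out. With the replicate number as a block 113 of the 114 and 699 of all genes were called. The numbers were not taken to pair the pools, since the deviations from the stage means correlated at 0.150, 0.0359 and 0.218 between early and late replicates 1, 2 and 3 and the second of these is under 0.1. Each pool did correlate best with that of its own number, which is a hint from the data and not from the design. Of 160 recomputed early means of the named genes, 159 moved by less than 1 SD. The exception was TRINITY_DN18365_c0_g1 with TMM scaling, at 40.2 CPM. A mean with an early library left out could not move by 1 SD of the same 3 values. The tally therefore carries information only for the TMM and DESeq2 scalings. Late values rest on at least 10 counts in each late library in 93 of the 114 genes, and on fewer than 30 counts in all in 3. Other than for the changed limits and unit, the cause of these changes was not tested.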
